A study of Mus musculus with 12 samples.

Results

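Glutamate that neurons release is cleared by transporters of the SLC1 family, carried back as glutamine by transporters of the SLC38 family, and rebuilt or broken down by a few enzymes. The 9 genes described here are named members of that route, chosen by gene symbol with earlier results of these data known, the rise of Slc1a3 among them. The transporters were Slc1a3, Slc1a2 and Slc1a1 for glutamate and Slc38a3, Slc38a5 and Slc38a1 for glutamine. The enzymes were glutamine synthetase (Glul), the glutaminase Gls2 and glutamate dehydrogenase (Glud1). Each of the 9 genes was found once among the 38924 genes of the tables, and all 9 passed the filter on low counts that left 17980 genes for testing. In P278KY spinal cord, Slc1a3 was 1.29-fold higher than in WT cord and Slc38a1 was 1.14-fold higher. The other 7 genes did not pass the test on counts, adjusted over all tested genes, with all 12 mice.

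Whole spinal cord was sequenced from 12 mice at 8 weeks of age. The mutants were 6 P278KY mice, heterozygous for that allele of Gars. Gars encodes the enzyme that loads glycine onto its tRNA, and its dominant mutations lead to Charcot-Marie-Tooth disease of peripheral nerves. The P278KY mice were females 3, 4 and 9 and males 6, 7 and 8, and the 6 wild-type (WT) mice were females 1, 2 and 10 and males 5, 11 and 12. Every mouse had the B6J;CAST strain background, and each library came from a mouse with its own number.

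In the cord as elsewhere in the central nervous system, astrocytes take up most of the released glutamate, with sodium and potassium gradients as the driving force. Glutamine synthetase joins ammonia to that glutamate, SLC38 transporters pass the glutamine out of astrocytes and into neurons, and glutaminase turns it back into glutamate. Glutamate dehydrogenase feeds part of the glutamate into the citric acid cycle as alpha-ketoglutarate.

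The libraries held 26982140 to 39339999 expected counts, the read numbers that RSEM estimates per gene. The 9 genes together took 0.510 to 0.549% of the counts in P278KY mice and 0.464 to 0.538% in WT mice. Gars lay at 138.0 to 145.0 counts per 1000000 counts (CPM) in P278KY mice and 118.2 to 137.8 CPM in WT mice, and the counts do not separate its mutant from its normal allele. The cord's own markers were present: the 18 astrocyte genes summed to 8811 to 10270 CPM in P278KY and 8506 to 9474 CPM in WT mice, and the 10 neuron genes to 4802 to 5097 CPM in P278KY and 4616 to 5461 CPM in WT mice. Genes of tissues next to the cord varied between libraries, and those of Schwann cells, which lie in the roots, separated by genotype. The mean log2 CPM of the Schwann cell genes was 4.62 to 5.60 in P278KY and 5.69 to 6.28 in WT mice. Of these 11 genes, 3 were called lower (edgeR adjusted p under 0.05), against 2.95% of all tested genes. The part of root RNA in the results on the 9 genes was not tested. The mean log2 CPM of 14 skeletal muscle genes lay between 6.50 and 9.12 for mice 1 to 4, against 2.51 to 4.51 for the rest. That of 10 sensory ganglion genes lay between 1.37 and 2.58 for mice 7, 10 and 11, against -1.41 to -0.72 for the rest. Mice 9 to 12 were set apart in earlier work on these libraries by low clock genes. Results were also computed without each of these sets of mice.

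Levels of the 9 genes can be set against each other only per transcript length, in TPM (a share of transcripts, scaled to the same sum in each library). Over the 12 mice Glul was the most abundant, at 1032 ± 71.4 TPM (mean ± SD), followed by Slc1a2 at 461.0 ± 31.2 TPM and Glud1 at 303.9 ± 13.2 TPM. Slc38a1 averaged 94.1 ± 10.3 TPM, Slc38a3 58.9 ± 5.01 TPM, Slc1a3 58.3 ± 9.33 TPM and Slc1a1 49.3 ± 2.36 TPM. Gls2 averaged 38.4 ± 3.01 TPM, and Slc38a5 was the scarcest at 6.996 ± 1.60 TPM. Each gene lay above the next in all 12 mice with 2 exceptions. Slc38a3 lay above Slc1a3 in 0 of 6 P278KY mice and in 6 of 6 WT mice. Slc1a3 lay above Slc1a1 in 6 of 6 P278KY mice and in 4 of 6 WT mice, females 1 and 10 and males 5 and 11. The astrocyte transporter Slc1a2 was thus far more abundant than the other astrocyte transporter Slc1a3 in this tissue, by TPM, in every mouse.

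Slc1a3 encodes GLAST (EAAT1), a sodium-coupled glutamate transporter of astrocytes. It lies on the minus strand of chromosome 15 (ENSMUSG00000005360, 8634124 to 8710764 in GRCm38). The 250 bases before its RefSeq start (GRCm38.p6, chr15:8710808-8711057, minus strand) are shown because it is the gene with the largest called change of the 9. They are written 5′ to 3′, with the single GC box (GGGCGG) in capitals, which begins 145 bases before the start.
Slc1a3: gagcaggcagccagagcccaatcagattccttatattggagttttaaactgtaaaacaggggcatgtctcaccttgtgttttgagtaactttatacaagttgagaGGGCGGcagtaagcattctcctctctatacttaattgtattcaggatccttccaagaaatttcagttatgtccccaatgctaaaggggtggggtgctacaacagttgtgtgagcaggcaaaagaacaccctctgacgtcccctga

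Slc1a3 transcripts were at 133.1, 137.3, 136.9, 134.9, 127.8 and 141.6 CPM in P278KY mice 3, 4, 6, 7, 8 and 9. They were at 107.2, 98.81, 105.3, 104.5, 110.6 and 102.2 CPM in WT mice 1, 2, 5, 10, 11 and 12. Every mutant lay above every WT mouse, and the lowest mutant, male 8, was well clear of the highest WT mouse, male 11. The means were 135.3 ± 4.64 CPM in P278KY and 104.8 ± 4.06 CPM in WT mice (SD, n = 6 each). The log2 change, P278KY over WT, was 0.37 (SE 0.03, 95% interval 0.30 to 0.44, edgeR quasi-likelihood test with Benjamini-Hochberg adjusted p = 6.4e-05). An exact permutation test of 6 against 6 mice, two-sided, reached 0.00216, the lowest p that its 924 arrangements allow.

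By that edgeR test, with adjusted p under 0.05 as the threshold throughout, 2 of the 9 genes were called, both higher in P278KY mice. Over all tested genes 5.32% were called in either direction and 2.36% were called higher. Slc1a3 was the only 1 of the 9 whose CPM did not overlap between the genotypes, against 3.73% of all tested genes. The median log2 change of the 9 was 0.01, against -0.0031 over all tested genes. Because the 9 were chosen with the rise of Slc1a3 known, these shares are context and not a test of the 9 as a set.

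**Figure D1:**
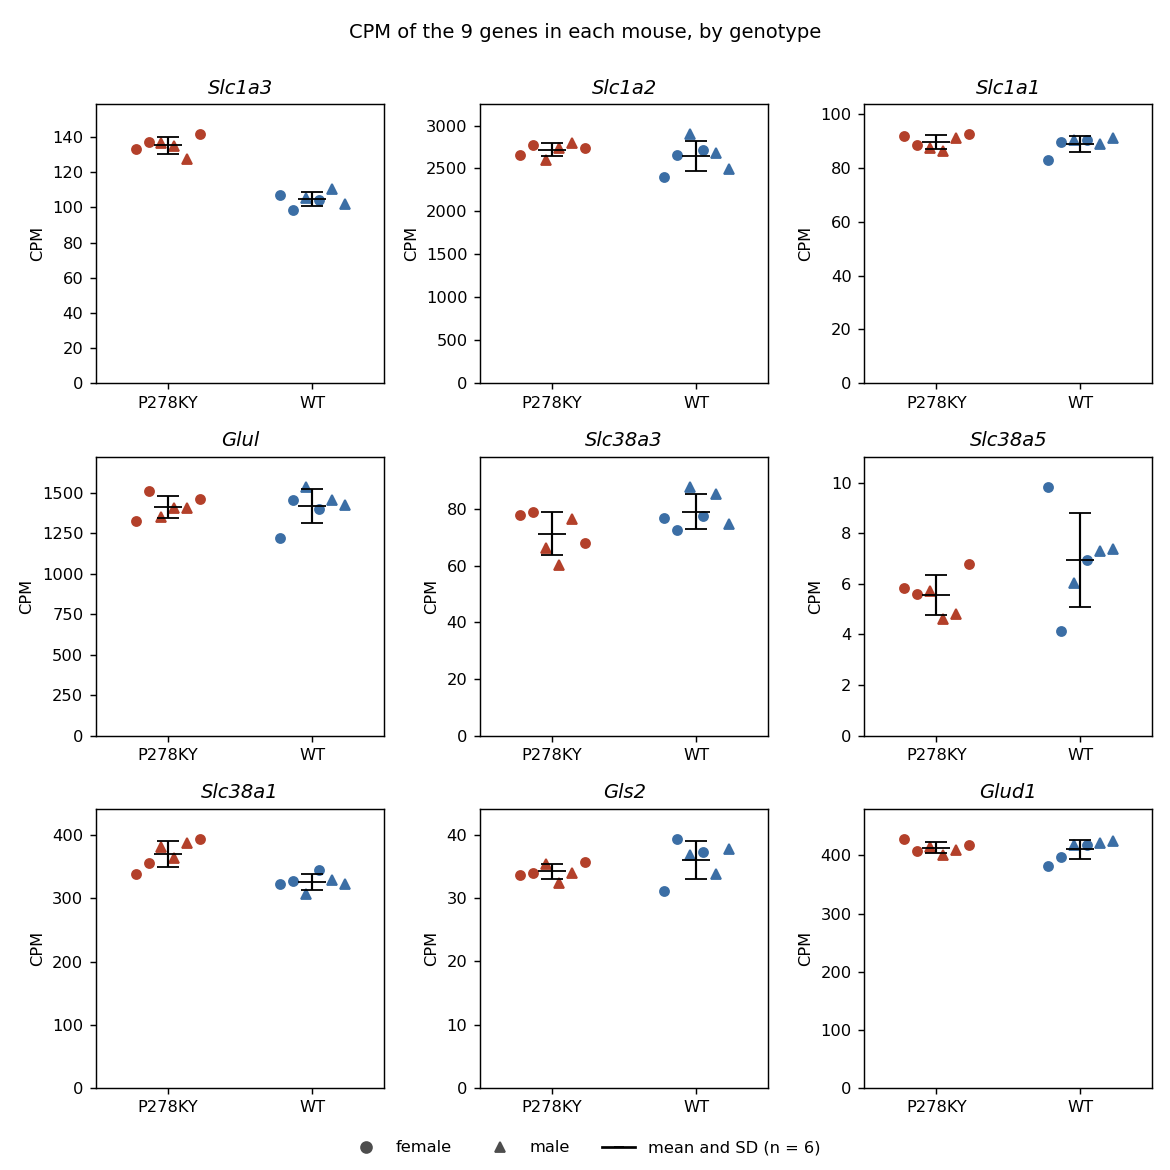
CPM (vertical axes, from 0) of each of the 9 genes in each mouse, P278KY left and WT right, with circles for females, triangles for males, and the mean with its SD over 6 mice as a black bar. The 6 mutants lie at 127.8 to 141.6 CPM for Slc1a3, above the WT mice at 98.81 to 110.6 CPM, while for Slc1a2, Glul, Gls2 and Glud1 the genotypes overlap.

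The Slc1a3 difference was present in both sexes. In females Slc1a3 had a log2 change of 0.41 (SE 0.05, edgeR adjusted p = 0.00212) and in males of 0.33 (SE 0.05, edgeR adjusted p = 0.00498). The difference between the sexes, males minus females, was -0.08 with a 95% interval of -0.22 to 0.06 (adjusted p = 1). Slc1a3 was the 1 gene of the 9 called in females alone, where 0.573% of all tested genes were called, and the 1 called in males alone, where 1.55% were called. It was called under each of the 27 alternative fits run, with log2 changes of 0.33 to 0.43. The highest adjusted p among them was 0.0132, without mice 9 to 12, and with 1 mouse left out at a time the log2 change stayed between 0.35 and 0.39.

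In cord RNA, a change in the number of cells of a type and a change in RNA per cell cannot be told apart. Of the 18 astrocyte markers, 1 was called higher and 2 lower, where 2.36% of all tested genes were called higher and 2.95% lower. Agt, an astrocyte gene for angiotensinogen, was at 247.2 ± 17.5 CPM in P278KY and 182.6 ± 19.2 CPM in WT mice (log2 change 0.44, SE 0.07, edgeR adjusted p = 0.00465). Acsbg1, an acyl-CoA synthetase, fell to 236.4 ± 10.7 CPM in P278KY mice, against 271.4 ± 20.4 CPM in WT mice (edgeR adjusted p = 0.0383), and Slc7a10, a transporter of small neutral amino acids, to 87.3 ± 3.08 CPM in P278KY mice, against 99.3 ± 8.69 CPM in WT mice (edgeR adjusted p = 0.0494). The mean log2 CPM of the list was 8.10 to 8.28 in P278KY and 8.02 to 8.18 in WT mice. The other 15 passed no test. The part of these shifts in the Slc1a3 result was not tested.

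Slc1a2 encodes GLT-1 (EAAT2), the main glutamate transporter of mature astrocytes (ENSMUSG00000005089, chromosome 2, 102658659 to 102790784, plus strand, GRCm38). Its lowest, median and highest values were 2594, 2736 and 2798 CPM in P278KY mice, against 2403, 2668 and 2898 CPM in WT mice. The WT values spanned the mutants on both sides. Slc1a2 had a log2 change of 0.04 (SE 0.04, 95% interval -0.06 to 0.14, edgeR adjusted p = 0.672), so its interval reaches at most 0.14 in the direction of Slc1a3. Within each mouse, the TPM of Slc1a3 over that of Slc1a2 was 0.140 ± 0.00675 in P278KY and 0.113 ± 0.00917 in WT mice. It ran from 0.129 to 0.148 in P278KY and from 0.102 to 0.128 in WT mice. That ratio was chosen after the values were seen and was given no test.

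Slc1a1 encodes EAAC1 (EAAT3), the neuronal glutamate transporter, which also carries cysteine (ENSMUSG00000024935, chromosome 19, 28835049 to 28913960, plus strand, GRCm38). Its lowest, median and highest values were 86.2, 89.9 and 92.6 CPM in P278KY mice and 83.0, 90.0 and 91.2 CPM in WT mice. The medians were almost the same and the groups overlapped. For Slc1a1 the log2 change was 0.01 (SE 0.03, 95% interval -0.06 to 0.08, edgeR adjusted p = 0.879).

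Glul encodes glutamine synthetase, which is largely an astrocyte enzyme in nervous tissue (ENSMUSG00000026473, chromosome 1, 153899944 to 153909723, plus strand, GRCm38). Its lowest, median and highest values were 1329, 1409 and 1512 CPM in P278KY mice and 1224, 1441 and 1540 CPM in WT mice. The mutants lay within the range of the WT mice. Its log2 change was -0.01 (SE 0.05, 95% interval -0.12 to 0.11, edgeR adjusted p = 0.974). The TPM of Slc1a3 over that of Glul, again chosen after the values were seen, was 0.0634 ± 0.00269 in P278KY and 0.0497 ± 0.00523 in WT mice.

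Slc38a3 encodes SNAT3, through which astrocytes release glutamine (ENSMUSG00000010064, chromosome 9, 107650634 to 107669530, minus strand, GRCm38). It was at 77.92, 78.84, 66.33, 60.18, 76.27 and 68.05 CPM in P278KY mice 3, 4, 6, 7, 8 and 9. It was at 76.62, 72.51, 87.88, 77.55, 85.42 and 74.5 CPM in WT mice 1, 2, 5, 10, 11 and 12. WT males 5 and 11 lay above every mutant, and mutants 6, 7 and 9 below every WT mouse, with the rest mixed. The log2 change was -0.15 (SE 0.07, 95% interval -0.31 to 0.01, edgeR adjusted p = 0.274). It was -0.01 (SE 0.09) in females and -0.29 (SE 0.09) in males (edgeR adjusted p = 0.977 and 0.152), and the difference between the sexes was -0.28 (SE 0.13, edgeR adjusted p = 1). Over both sexes it was -0.26 without mice 1 to 4 (edgeR adjusted p = 0.125) and -0.08 without mice 7, 10 and 11 (edgeR adjusted p = 0.657).

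Slc38a5 encodes SNAT5, a second glutamine exporter of astrocytes that other cell types also make (ENSMUSG00000031170, chromosome X, 8271133 to 8280179, plus strand, GRCm38). Its lowest, median and highest values were 4.60, 5.67 and 6.77 CPM in P278KY mice and 4.13, 7.13 and 9.86 CPM in WT mice. The WT mice were the more spread, with the highest value of all in female 1 and the lowest of all in female 2. The log2 change was -0.33 (SE 0.17, 95% interval -0.69 to 0.04, edgeR adjusted p = 0.309). Without WT female 2 it was -0.46, and the gene was then called (edgeR adjusted p = 0.0366), while without WT female 1 it was -0.20 (edgeR adjusted p = 0.507). The 6 red blood cell genes summed to 5439 CPM in WT female 1 and 1085 CPM in WT female 2, the highest and lowest of the 12, against 2006 to 3000 CPM in P278KY mice. The 11 endothelial genes summed to 636.2 CPM in WT female 1 and 480.4 CPM in WT female 2, also the extremes, against 502.7 to 553.2 CPM in P278KY mice. The part of blood or vessel RNA in the Slc38a5 values was not tested.

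Slc38a1 encodes SNAT1, by which neurons take up glutamine (ENSMUSG00000023169, chromosome 15, 96571418 to 96642913, minus strand, GRCm38). It was at 339.3, 357.0, 382.1, 364.0, 387.6 and 394.4 CPM in P278KY mice 3, 4, 6, 7, 8 and 9. It was at 323.7, 328.1, 306.6, 345.9, 329.7 and 322.8 CPM in WT mice 1, 2, 5, 10, 11 and 12. Of the 6 mutants, 5 lay above all WT mice, and P278KY female 3 lay below WT female 10. The means were 370.8 ± 20.9 CPM in P278KY and 326.1 ± 12.7 CPM in WT mice (SD, n = 6 each). Slc38a1 thus had a log2 change of 0.18 (SE 0.04, 95% interval 0.10 to 0.27, edgeR adjusted p = 0.0213), with p = 0.00433 by the exact permutation test.

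The Slc38a1 call lay nearer the threshold than that of Slc1a3. It was made in 19 of the 27 alternative fits, with a positive change in all 27. It was lost without WT male 5, P278KY male 6, P278KY male 8 or WT male 12 (edgeR adjusted p = 0.0528, 0.0596, 0.0526 and 0.0511). It was also lost without mice 7, 10 and 11 (log2 change 0.22, edgeR adjusted p = 0.0746) and without mice 9 to 12 (log2 change 0.18, edgeR adjusted p = 0.235), though the change was about as large as with all 12 mice. The log2 change was 0.13 (SE 0.06, edgeR adjusted p = 0.385) in females alone and 0.24 (SE 0.06, edgeR adjusted p = 0.0591) in males alone, and the difference between the sexes was 0.11 with an interval of -0.06 to 0.29. Of the 10 neuron markers, 1 was called higher and 1 lower, where 2.36% of all tested genes were called higher and 2.95% lower. Syt1, a calcium sensor of synaptic vesicles, had a log2 change of 0.16 (edgeR adjusted p = 0.0239). Stmn2, a regulator of axonal microtubules, had -0.27 (edgeR adjusted p = 0.00465). Of the 14 motor neuron genes tested, 10 were called lower, against 2.95% of all tested genes. Mnx1, Isl1, Mmp9 and Sv2a were not called (log2 changes -0.25, -0.06, -0.33 and 0.07). That list summed to 4228 to 4484 CPM in P278KY and 4957 to 7184 CPM in WT mice. The neurofilament genes Nefl, Nefm and Nefh weighed most in that sum. Their means were 1390, 1417 and 788.9 CPM in P278KY and 2098, 2303 and 1259 CPM in WT mice, so the sum says little about the other genes. The part of these shifts in the Slc38a1 result was not tested.

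**Figure D2:**
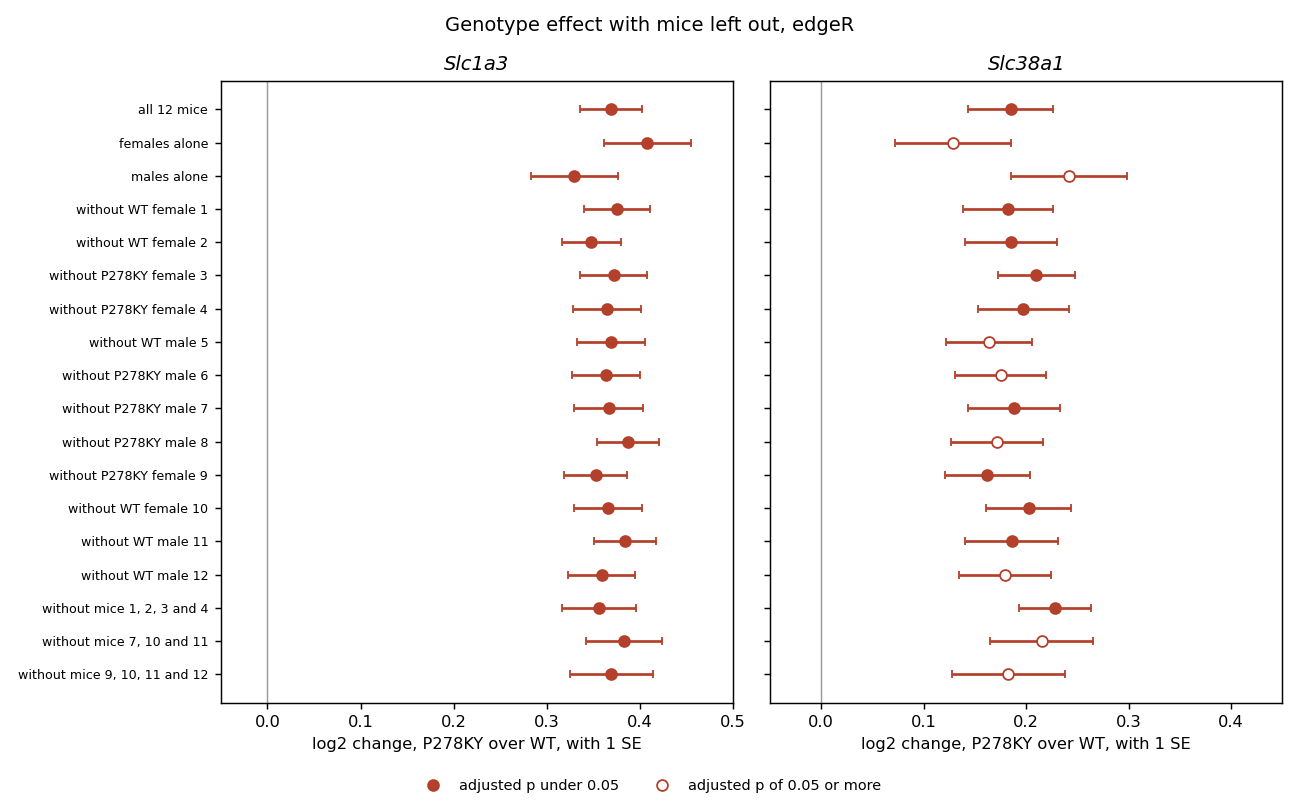
Log2 change (horizontal axes, P278KY over WT, edgeR, bars of 1 SE) of Slc1a3 on the left and Slc38a1 on the right, with all 12 mice, within each sex, and with mice left out (rows), filled where adjusted p was under 0.05. Slc1a3 is filled in every row, while Slc38a1 is open in 8 rows and positive in each.

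Gls2 encodes the liver-type glutaminase, also present in brain (ENSMUSG00000044005, chromosome 10, 128194457 to 128210004, plus strand, GRCm38). Its lowest, median and highest values were 32.5, 34.0 and 35.8 CPM in P278KY mice and 31.1, 37.1 and 39.4 CPM in WT mice, so the WT mice again spanned the mutants. The log2 change was -0.07 (SE 0.05, 95% interval -0.19 to 0.04, edgeR adjusted p = 0.494). It was -0.12 without WT female 1 (edgeR adjusted p = 0.109) and -0.05 without WT female 2 (edgeR adjusted p = 0.688). The end of Gls2 overlaps Spryd4 on the other strand, and whether the authors' counting used strand is not given in the sources used here.

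Glud1 encodes glutamate dehydrogenase of mitochondria (ENSMUSG00000021794, chromosome 14, 34310727 to 34345265, plus strand, GRCm38). Its lowest, median and highest values were 400.8, 412.3 and 428.5 CPM in P278KY mice and 381.4, 417.4 and 425.5 CPM in WT mice. The groups overlapped almost fully. The log2 change was 0.01 (SE 0.03, 95% interval -0.06 to 0.08, edgeR adjusted p = 0.890).

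None of the 9 genes was called for sex, against 0.089% of all tested genes (16 genes), and none for the interaction of genotype and sex, where edgeR called 0.0% of all tested genes, with 665 at an unadjusted p under 0.05. The Wald test of DESeq2 called 53 genes for that interaction, none of them among the 9. WT female 1 had the lowest WT value for 5 of the 9 genes, namely Slc1a2, Slc1a1, Glul, Gls2 and Glud1, and WT female 2 for 3 others. Without WT female 1, Slc1a1 and Glud1 had log2 changes of -0.01 each and stayed far from the threshold.

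On log2(TPM + 1), the per-length scale, the median change over all tested genes was 0.06, and limma called 1358 genes higher and 248 lower, 8.93% of those tested, against 425 higher and 531 lower by counts. The called genes among the 9 were again Slc1a3, with a log2 change of 0.42 (limma adjusted p = 0.000141), and Slc38a1, with 0.26 (limma adjusted p = 0.0105). Slc1a3 averaged 67.0 ± 2.91 TPM in P278KY and 49.7 ± 1.78 TPM in WT mice, and Slc38a1 averaged 102.5 ± 6.65 TPM in P278KY and 85.6 ± 3.99 TPM in WT mice.

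Slc1a1 differed between the scales. Its TPM was 50.4 to 51.9 in P278KY mice and 43.6 to 49.2 in WT mice, so in TPM both Slc1a3 and Slc1a1 had genotypes that did not overlap, as 5.32% of all tested genes did. The exact two-sided permutation p of Slc1a1 in TPM was 0.00216, unadjusted and 1 of 9 such tests. Fitted over all genes, its log2 change was 0.10 (SE 0.03, limma adjusted p = 0.0786), where the median gene moved by 0.06. Slc1a2 in TPM averaged 480.1 ± 17.4 in P278KY and 442.0 ± 31.1 in WT mice (exact permutation p = 0.0238, limma adjusted p = 0.125). Glud1 in TPM averaged 311.8 ± 5.89 in P278KY and 295.9 ± 14.1 in WT mice (exact permutation p = 0.026, limma adjusted p = 0.181). The remaining 4 had exact permutation p of 0.234 to 0.545 in TPM.

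**Figure D3:**
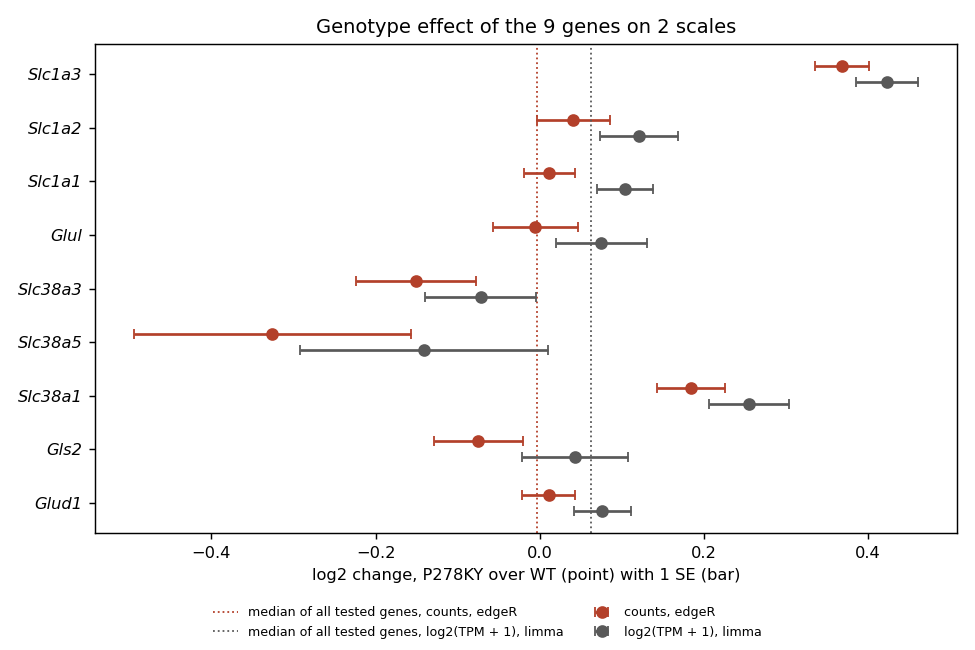
Log2 change of each gene (horizontal axis, P278KY over WT, point with a bar of 1 SE) by counts with edgeR in red and by log2(TPM + 1) with limma in grey, and the median of all tested genes on each scale as a dotted line. Every gene lies further right in TPM, as does the median of all genes (0.06 against -0.0031), and Slc1a3 and Slc38a1 stand right of both lines.

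The mix of transcripts was read from the mean transcript length that RSEM gives for each gene and mouse, weighted by the share of each transcript. None of the 9 was called for this length by limma, against 0.0178% of the 11216 genes with a varying length, where 709 genes had an unadjusted p under 0.05. Slc1a3 had a mean length of 4095 ± 12.9 bases in P278KY and 4059 ± 40.7 bases in WT mice (limma adjusted p = 0.813), and Slc1a1 had 3577 ± 38.6 bases in P278KY and 3622 ± 21.2 bases in WT mice (limma adjusted p = 0.749). For Slc38a5, P278KY female 3 stood apart at 1518 bases, against 1868 to 1884 bases in the other 11 mice.

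The neighbours of the 9 genes in the pathway were followed in 9 lists of 65 genes, of which 63 were tested. Of these 63, 4 were called higher and 1 lower, with a median log2 change of 0.03. These 5 were 7.94% of the 63, against 5.32% of all tested genes, so the lists as a whole are near the background. The 2 untested genes were Slc1a7 and Slc38a8, which were filtered as low. Slc1a4, called from the other SLC1 genes, encodes ASCT1, an exchanger of neutral amino acids such as serine and alanine and not a glutamate carrier. It was at 77.6 ± 3.38 CPM in P278KY and 67.9 ± 5.26 CPM in WT mice (log2 change 0.20, SE 0.04, edgeR adjusted p = 0.0146).

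Of 10 other enzymes of glutamate and glutamine, 2 were called higher, against 2.36% of all tested genes, and both act between glutamate and proline. Prodh, proline dehydrogenase, begins the breakdown of proline to glutamate, and was at 21.8 ± 1.93 CPM in P278KY and 17.1 ± 1.35 CPM in WT mice (log2 change 0.35, SE 0.06, edgeR adjusted p = 0.00496). Aldh18a1, which turns glutamate into a precursor of proline, was at 28.5 ± 1.42 CPM in P278KY and 25.0 ± 1.59 CPM in WT mice (log2 change 0.19, SE 0.04, edgeR adjusted p = 0.0217). These 2 enzymes lie on opposite arms between glutamate and proline. Of 10 enzymes that use the amide of glutamine, 1 was called higher, against 2.36% of all tested genes. It was Asns, asparagine synthetase, at 78.2 ± 3.04 CPM in P278KY and 64.3 ± 5.34 CPM in WT mice (log2 change 0.28, SE 0.04, edgeR adjusted p = 0.00285).

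Of 12 genes for the ion gradients and partners of astrocyte uptake, 1 was called lower, against 2.95% of all tested genes. Kcnj10 encodes Kir4.1, the inward rectifier by which astrocytes hold a negative membrane potential and take up potassium. It fell to 861.6 ± 32.4 CPM in P278KY mice, against 1089 ± 62.0 CPM in WT mice (log2 change -0.34, SE 0.04, edgeR adjusted p = 0.000686). Its values were 829.4 to 909.8 CPM in P278KY mice and 974.5 to 1145 CPM in WT mice, with no overlap. Of the 63 tested neighbours, 3 had genotypes that did not overlap in CPM, namely Kcnj10, Prodh and Asns, against 3.73% of all tested genes.

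The other 5 lists held no called gene. For the SLC38 genes, Slc38a6 and Slc38a2, the most abundant in CPM, had log2 changes of 0.05 (SE 0.15, edgeR adjusted p = 0.887) and 0.16 (SE 0.06, edgeR adjusted p = 0.175). Of the vesicular glutamate transporters, Slc17a6 was at 195.0 ± 7.10 CPM in P278KY and 184.1 ± 8.01 CPM in WT mice (edgeR adjusted p = 0.151), and the much scarcer Slc17a7 at 3.29 ± 0.981 CPM in P278KY and 4.85 ± 1.11 CPM in WT mice (edgeR adjusted p = 0.1502). The mitochondrial carriers Slc25a12 and Slc25a22 had changes of -0.04 and -0.0092 (edgeR adjusted p = 0.4496 and 0.915). For GABA, made from glutamate, Abat and Slc6a11 had -0.02 and 0.0099 (edgeR adjusted p = 0.815 and 0.938). For cystine exchange and glutathione, Slc3a2 and Gclm had 0.07 and -0.07 (edgeR adjusted p = 0.363 and 0.484).

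The same alternatives were read out for the 5 called neighbours after their values had been seen. Without mice 9 to 12 none of them was called, and 84 genes were called over all those tested. The log2 changes there were -0.35 for Kcnj10, 0.28 for Asns, 0.31 for Prodh, 0.18 for Slc1a4 and 0.16 for Aldh18a1. Without mice 7, 10 and 11, Prodh was called higher and Kcnj10 lower. Over the 27 alternatives Kcnj10 was called in 25, Asns and Prodh in 23, Slc1a4 in 22 and Aldh18a1 in 17, each with the same sign in all 27. On log2(TPM + 1), 11 of the 63 were called higher and 1 lower, where 8.93% of all tested genes were called.

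**Figure D4:**
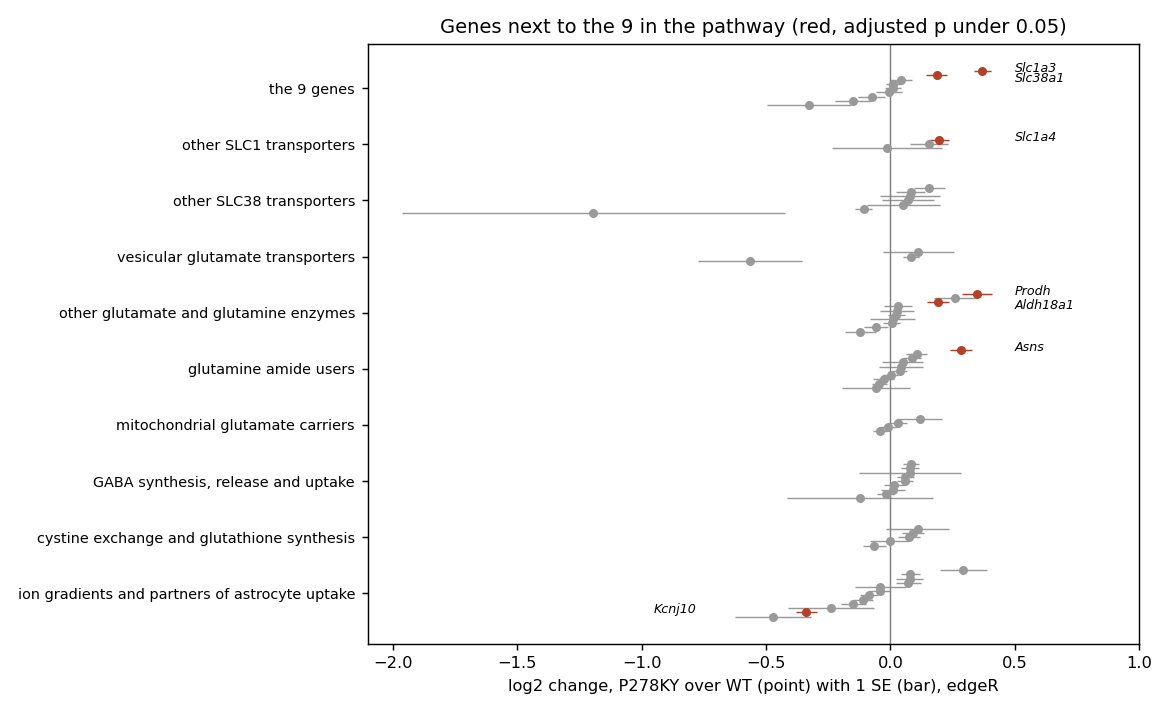
Log2 change (horizontal axis, P278KY over WT, edgeR, bars of 1 SE) of the 9 genes in the top row and of the tested genes of each pathway list in the rows under it, with genes of adjusted p under 0.05 in red and named. The 5 red points among the neighbours run from -0.34 for Kcnj10 to 0.35 for Prodh.

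Asns and Aldh18a1 are targets of ATF4, the transcription factor of the integrated stress response. Of 28 ATF4 targets followed here, a list chosen with earlier results of these data known, 16 were called higher. Over all tested genes 2.36% were called higher. The median log2 change of the 28 was 0.37. The core letters of the site that ATF4 shares with C/EBP factors, TGATGNAA, were searched on both strands of the 300 bases from 250 before to 50 after each RefSeq start (GRCm38.p6), and 6 of the 9 genes had an entry there: Slc1a3, Slc1a2, Slc1a1, Glul, Slc38a5 and Glud1. None of the 6 windows held it. Only 3.97% of 32851 promoters did, so its absence from 6 windows was likely for any genes and is no result about these. Slc38a1, Slc38a3 and Gls2 had no entry and were not searched. Of the called neighbours, only Slc1a4 and Asns were picked for this search, and both held the letters. Prodh, Aldh18a1 and Kcnj10 were not read out, so these matches do not describe the called neighbours as a set. The stretches of Slc1a4 (chr11:20332699-20332728) and Asns (chr6:7693214-7693243), both minus strand genes, are shown for comparison with the Slc1a3 sequence above. The match is in capitals, on the opposite strand for Slc1a4.
Slc1a4: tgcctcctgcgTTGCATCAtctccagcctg
Asns: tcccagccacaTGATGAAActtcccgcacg
The GC box GGGCGG, also searched on both strands, was in 35.7% of all promoters and in those of Slc1a3, Slc1a1, Glul, Slc38a5 and Glud1. The Slc1a2 window held none. That window (chr2:102706188-102706487) lies inside the gene, which starts at 102658659 in GENCODE, so neither search covered that start. These are matches of letters and not sites shown to be bound.

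The genes whose log2 CPM over the 12 mice lay closest to that of Slc1a3 were sought among 12382 genes of at least 5 CPM, by the root mean square difference after centring each gene on its mean. They were Reln (0.0591), Cpne7 (0.0620) and Cacng3 (0.0715), with log2 changes of 0.36, 0.40 and 0.36. For Slc38a1 they were A330021E22Rik (0.0401), Arhgap33 (0.0462) and Ralgps1 (0.0558), with log2 changes of 0.14, 0.16 and 0.11. The 12 mice share their libraries and scaling between all these genes, so the likeness is a description. The search itself picks genes with a similar difference between the genotypes, so their similar log2 changes are no further result.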

How the data were processed

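RNA-seq of whole spinal cord from 12 mice was analysed from 1 gene table per mouse. Per the submitters' processing notes, the tools were Bowtie2 2.2.0 and RSEM 1.2.12, while the build, annotation and strand setting are not given in the sources consulted. In the deposited tables the expected count of a gene, named so per the file headers, is an RSEM estimate that splits reads with several matching genes. The TPM column that the authors deposited is corrected for transcript length and for the library's sum. Per the labels, polyadenylated RNA was sequenced from both ends in reads of 75 bp, with 2 library kits named for the study but not by mouse.

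Expected counts were rounded, filtered with filterByExpr over 4 groups of 3 mice, scaled by TMM and fitted with edgeR 4.0.16 (robust quasi-likelihood, sex plus genotype, R 4.3.3) over 17980 genes. CPM is the count over 1000000 counts of the tested-gene total times its TMM factor, and SE is the log2 change over the square root of F. Effects within a sex and the interaction came from a model of 4 group means. Limma 3.58.1 was used for transcript length and for log2(TPM + 1), and DESeq2 1.42.0 as an alternative. On simulated counts with known changes, the edgeR steps were tested before use. Positions came from GENCODE M21, which matched 37607 of the 38924 genes by identifier, and promoters from RefSeq.

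The 9 genes, the gene lists and the sets of mice left out were chosen with earlier results of these data known. Named are the 9 genes, each called gene of a pathway list or else the 2 of the highest CPM, up to 3 called genes of a marker list, and the 3 genes most like each called member. Also named are the motor neuron genes that were not called. The labels name no batch or litter, and p-values measure the spread between these mice.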

Additional observations from a re-analysis of the deposited data

Results flagged for a closer look

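Of 18 sets of values examined (9 genes in 2 genotypes of 6 mice), 1 held a mouse far from the others. Slc1a1 was at 83.0 CPM in WT female 1, against 88.9 to 91.2 CPM in the other 5 WT mice. Without that mouse the log2 change of Slc1a1, P278KY over WT, was -0.01 (edgeR adjusted p = 0.875), against 0.01 with it.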

How the results depend on the processing

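Over 27 alternatives the genotype effects of Slc1a3, Slc1a2, Slc38a3, Slc38a5 and Slc38a1 kept their sign. The number of the 9 genes called fell to 1 (Slc1a3) in females alone, in males alone, without mice 7, 10 and 11 and without mice 9 to 12, and was 1 to 3 with 1 mouse left out, the third being Slc38a5 without WT female 2. Genes near 0, none of them called, changed sign. Slc1a1 was at -0.0308 in males alone, -0.0149 without mice 1 to 4, -0.0065 by limma voom and -0.0104 to 0.0211 with 1 mouse left out. Glul was at 0.0753 in females alone, 0.0066 with mice 9 to 12 as a term, 0.0023 without mice 7, 10 and 11, 0.0754 on log2(TPM + 1), 0.0755 on log2(TPM + 0.1), and -0.0465 to 0.0162 with 1 mouse left out. Gls2 was at 0.0435 and 0.0446 on these TPM scales. Glud1 was at -0.0464 in males alone, -0.0346 without mice 1 to 4, -0.0065 by voom and -0.0097 to 0.021 with 1 mouse left out. With 1 mouse left out, the change in log2 length ran from -0.0653 to 0.003 for Slc38a5 and from -0.0039 to 0.0225 for Glud1. The cause was not tested. Genes called over all those tested numbered 956, against 84 without mice 9 to 12, 253 without mice 7, 10 and 11, 1617 by DESeq2, 1467 by voom and 542 to 1385 with 1 mouse left out. No paired analysis was possible because the mouse numbers are not shared between groups. At these depths the 95% intervals of the uncalled genes reach at most 0.31 below 0 (0.69 for Slc38a5, the scarcest) and 0.14 above it.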
